A study of Mus musculus with 64 samples.

Results

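Immediate early genes are transcribed within minutes of a stimulus and without new protein synthesis, since the kinases and factors that switch them on are already in the cell. Several of them encode subunits of activator protein 1 (AP-1), a dimer of a Fos and a Jun protein that binds regulatory DNA of inflammatory and stress genes. In microglia, the resident macrophages of the retina, the same genes are also known to be induced by tissue dissociation and cell sorting, so that naive cells set the background against which any other condition is read. The 10 genes described here were taken by symbol from the 25239 genes of the batch-corrected count table. *Fos* and *Fosb* encode Fos subunits, *Jun*, *Junb* and *Jund* the Jun subunits, and *Atf3* a stress-induced bZIP factor that can pair with Jun proteins. *Egr1* is a zinc finger factor driven by serum response factor (SRF), *Ier2* a nuclear immediate early protein, *Zfp36* the protein tristetraprolin, which destabilises cytokine mRNAs, and *Dusp1* a phosphatase that switches off the p38 and JNK kinases. Of the 10, 9 passed the filter on low counts and were tested, and *Fosb* did not.

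All animals were Cx3cr1CreER:R26-tdTomato +/- mice on the C57BL/6J background, in which tamoxifen eye drops, given to every group and followed by a washout, switched on the red reporter in cells expressing the fractalkine receptor. Naive eyes were not injected, and the other eyes received an intravitreal injection (IVT) of AAV2 null, a vector without a transgene, at 1e10 genome copies per eye and were collected on day 12 or day 28. By the paper's methods, the vector in every injected eye also carried an oligonucleotide sequence (io2) that inhibits TLR9, a sensor of viral DNA. No vehicle-injected group was analysed here, so that the injection and the virus cannot be told apart. Each library held 600 tdTomato-high cells sorted from 1 retina. The 62 libraries comprised 19 naive (7, 5 and 7 at 3, 9 and 18 months), 22 day 12 (8, 7 and 7) and 21 day 28 libraries (7 at each age), with both sexes in every group. Samples were collected over 2 days, with 27 libraries from day 1 and 35 from day 2 and every stage in both.

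Total counts per library ran from 1468478 to 9836173 (median 4188992), so that 3 counts of a gene, the smallest amount taken as measurable, corresponded to 0.361 to 2.117 CPM (counts scaled to the size of their library). All levels below are CPM after TMM scaling. The microglial gene *P2ry12* was detected in every library (490.8 to 10270 CPM), and *Tmem119* likewise (266.1 to 2612 CPM). The summed level of 8 microglial markers had a median of 32180 CPM in naive (26500 to 46180), 14980 CPM at day 12 (8169 to 31730) and 23370 CPM at day 28 libraries (15790 to 40520). T cell markers (4 genes) had medians of 0, 79.12 and 54.76 CPM (ranges 0 to 110.7, 0 to 282.7 and 2.388 to 142.3), with *Cd3e* at 0 in 16 libraries. Monocyte markers (4 genes) had medians of 12.06, 62.58 and 6.973 CPM (0.2349 to 111, 4.755 to 1100 and 0.1972 to 58.07), border macrophage markers (4 genes) 158.9, 5.344 and 5.716 CPM (6.529 to 366, 0 to 55.79 and 0 to 83.65), and photoreceptor markers (6 genes) 1753, 752.6 and 1393 CPM (533.7 to 3146, 391.9 to 2864 and 822.9 to 2518). The medians of these lists also differed between naive and injected eyes, and their part in the changes given below was not tested. In bulk libraries, fewer cells of a type and less RNA per cell cannot be told apart.

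Some libraries stood apart in the members. Replicate 1 of the 9-month-old and replicate 1 of the 18-month-old naive females had the fewest detected genes (10505 and 11045, against up to 14247) and held the highest naive levels of 6 of the 10 members between them. Replicate 2 of the 3-month-old day 12 males came close, with 11087 genes. It was kept in the fits below without the 2 libraries with the fewest genes, which leave out naive libraries only. Replicate 4 of the 3-month-old naive females, replicate 2 of the 9-month-old naive males and replicate 4 of the 18-month-old day 28 males combined low *Jun* (13.3, 21.3 and 10.09 CPM) with high *Junb* (207.9, 251.2 and 208.3 CPM) and high *Jund* (65.1, 74.0 and 41.7 CPM). The last of these libraries carries 2 time points in its labels, day 28 in the title and day 12 in a tag, and was placed by its title. The sample codes of these 3 libraries begin with the same letter, F, and all 3 are of the second collection day. Replicate 4 of the 18-month-old day 12 females and replicate 3 of the 18-month-old day 12 males share that letter and day. Total counts of the 3 rose with the batch correction, from 5622508 to 5996165, from 5934514 to 6305498 and from 5615633 to 5918557. The total of the day 12 male library rose as well (1910406 to 2012047), and that of the day 12 female library fell (4072128 to 3658403). Whether the 3 libraries share a step of processing was not tested. In the marker lists, 3 of 22 day 12 libraries, all of the first collection day, had a microglial sum above the lowest naive one, replicates 1 and 2 of the 18-month-old females (31730 and 27230 CPM, with T cell sums of 0 and 10.54 CPM) and replicate 2 of the 9-month-old males (26800 and 70.99 CPM). Replicate 4 of the 18-month-old females, of the second day, had a monocyte sum of 1100 CPM, against at most 393.1 CPM in the other day 12 libraries. Without each of these 4 in turn, *Fos* at day 12 and 18 months differed from naive by 3.81, 3.98 and 3.85 on the log2 scale (the 3 females), and *Egr1* at 9 months by 3.04, and no plain edgeR call of a member at day 12 was lost.

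The sequence before the start of transcription was available from RefSeq (GRCm38.p6) for 8 of the 10 members, *Egr1* and *Ier2* being the others. Immediate early promoters are known for elements that bind factors already present in the cell, such as the cAMP response element (CRE), bound by CREB and ATF proteins, and the CArG box, bound by SRF. *Fos* and *Jun* are printed because their levels after injection differed from naive in opposite directions (below). Each sequence holds the 200 bases before the start, written 5′ to 3′ in the direction of the gene, with the matched element in capitals. In *Fos* (chr12:85473690-85473889, plus strand) it is the CRE core TGACGT, and in *Jun* (chr4:95052223-95052422, minus strand) the Jun-type AP-1 site TGACATCA.
Fos: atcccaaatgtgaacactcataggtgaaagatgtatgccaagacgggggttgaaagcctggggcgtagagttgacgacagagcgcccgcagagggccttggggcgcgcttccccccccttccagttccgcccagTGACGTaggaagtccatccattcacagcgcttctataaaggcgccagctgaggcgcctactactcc
Jun: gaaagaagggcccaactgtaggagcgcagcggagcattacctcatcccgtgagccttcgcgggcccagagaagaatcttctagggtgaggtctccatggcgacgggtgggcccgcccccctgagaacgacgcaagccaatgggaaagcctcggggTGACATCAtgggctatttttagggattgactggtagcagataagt

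The CRE core lay 66 to 61 bases before the start of *Fos* and 8 to 3 bases before that of *Atf3*, and it matched 3 times before *Dusp1*, where 2 of the matches overlap in the full palindrome TGACGTCA (143 to 136 bases before the start). Both strands were searched. The core occurs in 5.85% and the palindrome in 1.47% of 32851 mouse promoters of the same length. The Jun-type site lay 45 to 38 bases before the start of *Jun* and occurs in 2.66% of promoters, and a CArG box lay 58 to 49 bases before that of *Zfp36* and occurs in 1.18%. The classical AP-1 site TGACTCA, present in 3.66% of promoters, matched in 0 of the 8 windows. These matches describe letters in a window and say nothing of binding in these cells.

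In naive microglia the members fell into a well-expressed and a barely expressed set. Per kilobase of exon, the only scale on which genes are compared with each other here, *Junb* had the highest median level over the 19 naive libraries, 41.3 CPM per kb (20.1 to 116). *Jun* (21.8, range 4.16 to 43.2), *Atf3* (19.8, 9.36 to 52.2), *Zfp36* (18.1, 13.3 to 30.8), *Jund* (16.6, 10.7 to 44.4) and *Ier2* (16.1, 5.41 to 41.6) followed, and the range of each of these 5 overlapped that of its neighbours. *Dusp1* was at 1.55 CPM per kb (0 to 3.95), *Egr1* at 0.194 (0 to 6.17) and *Fos* at 0.0966 (0 to 1.29). *Fos*, the gene most often read as a sign of induction during sorting, was at 0 counts in 9 of 19 naive libraries and at 3 counts or fewer in 11. *Fosb* was detected in 1 naive library, at 0.211 CPM. The counting did not use strand. By whole gene spans, introns included, members overlap the genes *Junos* (with *Jun*), *Prdx2* (with *Junb*), *Gm11175* (with *Jund*), *Gm24748* (with *Atf3*), *Gm44710* (with *Zfp36*) and *Ergic1* (1 of 4 with *Dusp1*). Reads on exon bases shared with a member could not be told apart from its own. Whether exon bases are shared in the annotation used for counting was not checked.

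**Figure D1:**
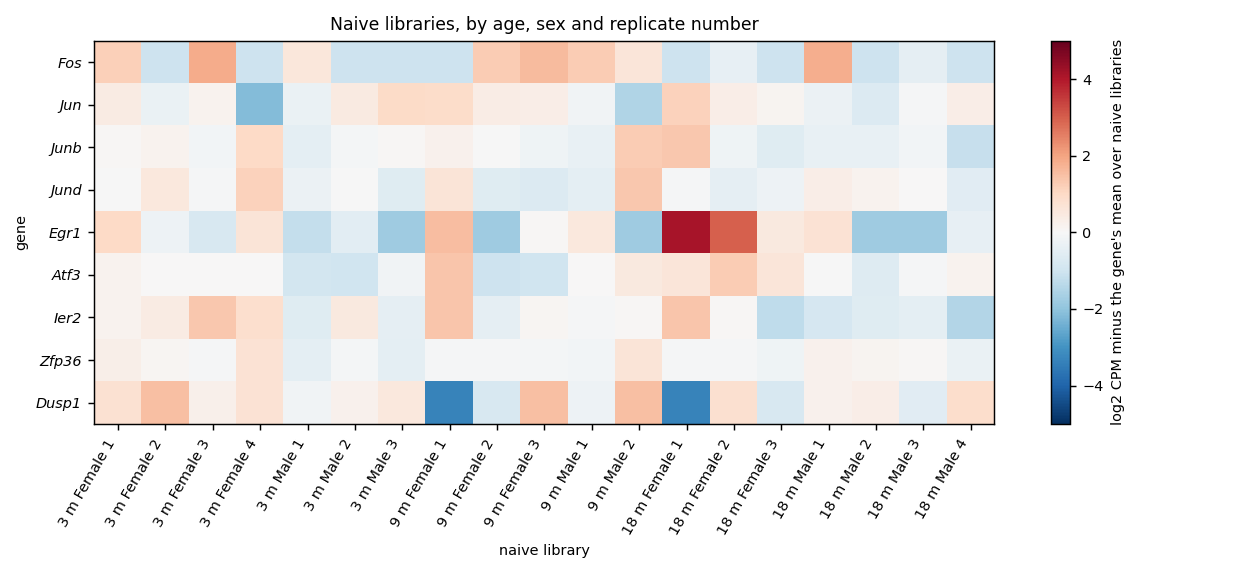
Levels of the 9 tested members in the 19 naive libraries, as log2 CPM minus the gene's mean over naive libraries (colour scale), with libraries in columns by age, sex and replicate number. *Egr1* varied most, with 27.65 and 12.17 CPM in replicates 1 and 2 of the 18-month-old females, while *Zfp36* stayed between 45.98 and 106.7 CPM.

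As the plot of naive libraries shows, members did not rise and fall together across naive retinas. On the log2 scale *Zfp36*, *Jund* and *Junb* varied least and were high in the same pair of libraries, replicate 4 of the 3-month-old females and replicate 2 of the 9-month-old males, whereas *Dusp1* was at 0 in the pair of libraries with the fewest genes, which were among the highest for *Jun* and *Ier2*. With group means removed over all 62 libraries, the level of a member had a Pearson r with the mean of the others of 0.63 for *Zfp36*, 0.61 for *Junb*, 0.56 for *Jund* and 0.53 for *Ier2*, but 0.33 for *Egr1*, 0.2 for *Jun* and *Fosb*, 0.19 for *Atf3*, 0.04 for *Fos* and 0.01 for *Dusp1*. These values are a description, and the libraries share their depth and collection day. The pair high in *Zfp36*, *Jund* and *Junb* also shares the features given for it above, and its part in these values was not tested.

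The naive groups were compared first. Between 9 and 3 months, 0 of the 9 tested members passed the edgeR quasi-likelihood test at a Benjamini-Hochberg adjusted p under 0.1, where 0% of all 13584 genes tested passed. An unadjusted p under 0.05 was reached by 0 members and 4.97% of genes (0 members by DESeq2 at either level). Over all genes DESeq2 called 21 at the adjusted threshold. Between 18 and 3 months, 0 members passed, where 0.11% of genes did, and 2 had an unadjusted p under 0.05, beside 7.44% of genes (0 and 2 members by DESeq2, which called 58 over all genes). The 2 members were *Atf3* and *Egr1*. *Atf3* had 20.6, 42.5 and 47.8 CPM (lowest, median, highest) in 7 libraries at 3 months and 26.9, 47.9 and 102.1 CPM in 7 libraries at 18 months, a log2 difference of 0.69 ± 0.32 (SE). *Egr1* had 0, 0.651 and 2.75 CPM at 3 months and 0, 1.76 and 27.7 CPM at 18 months, a log2 difference of 2.04 ± 0.97. The groups overlapped in both genes. Intervals of the difference between 18 and 3 months were narrow for *Zfp36* (-0.45 to 0.43 on the log2 scale) and *Junb* (-0.66 to 0.44) and wide for *Fos* (-3.45 to 1.25).

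Naive males and females differed in 0 members at that threshold, where 0.081% of genes passed. An unadjusted p under 0.05 was reached by 3 members, beside 7.79% of genes, and all 3 were lower in males (0 and 3 members by DESeq2, which called 34 over all genes). *Ier2* had 9.54, 29.4 and 63.4 CPM in 10 female libraries and 8.23, 16.6 and 33.7 CPM in 9 male libraries, a log2 difference of males minus females of -0.90 ± 0.29 (edgeR adjusted p = 0.5). *Egr1* had 0, 1.89 and 27.7 CPM in females and 0, 0.235 and 2.15 CPM in males, a difference of -2.47 ± 0.83 (edgeR adjusted p = 0.5). *Atf3* had 20.2, 45.4 and 112.4 CPM in females and 20.6, 40.4 and 60.1 CPM in males, a difference of -0.57 ± 0.28 (edgeR adjusted p = 0.636). The female values spanned those of the males in each of the 3 genes except at the lowest end of *Ier2*. Without a filter on low counts, *Egr1* passed this comparison (-2.49, edgeR adjusted p = 0.00948).

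**Figure D2:**
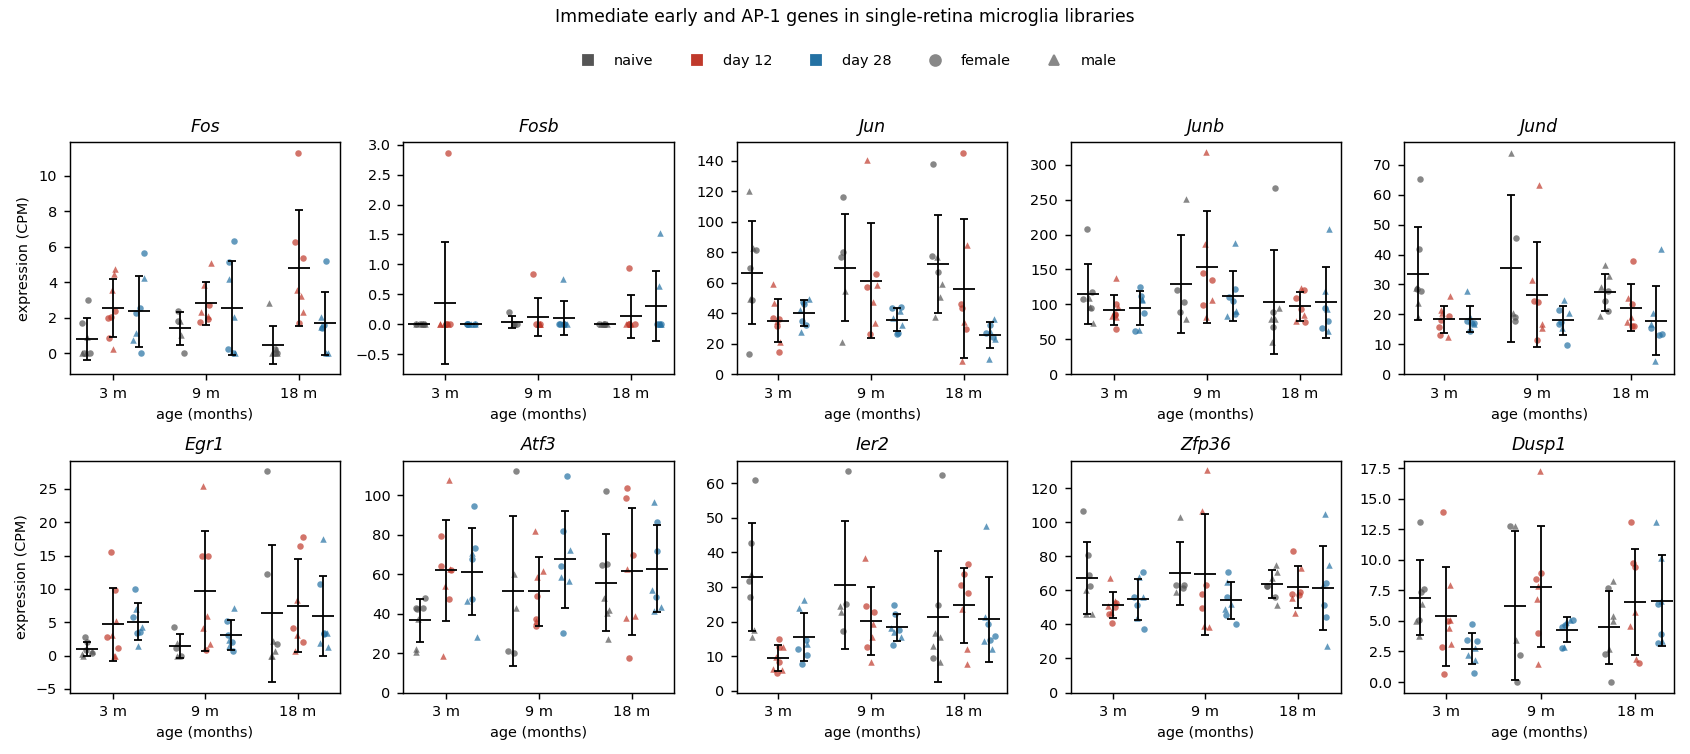
Level of each of the 10 members in all 62 libraries (CPM, linear axis from 0, or from just under it where an SD bar crosses 0), by age in months, stage (colour) and sex (marker), with the mean and SD of each group of age and stage. *Ier2* at 3 months and *Jun* at 18 months are the panels in which an injected group lies wholly under naive, at 5.03 to 15.0 against 15.5 to 60.9 CPM and at 10.09 to 36.5 against 37.6 to 138 CPM.

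At day 12, members did not move as a block. Tested against a log2 fold change of 1 at an adjusted p under 0.05 (edgeR glmTreat), 0 of 9 members passed at 3 months, where 3.35% of genes did, 0 at 9 months (4.14% of genes) and 0 at 18 months (3.26%). Unadjusted p under 0.05 was reached by 2, 1 and 1 members, beside 9.03%, 11.9% and 9.77% of genes. DESeq2 with the same threshold called 0 members at each age, and 303, 390 and 264 over all genes. The median log2 difference of the members was -0.27, 0 and 0.07 at the 3 ages, beside 0, 0.06 and 0.03 over all genes. With the plain quasi-likelihood test, which asks only for a difference from 0, 2 members passed at 3 months (16.6% of genes), 1 at 9 months (18.4%) and 1 at 18 months (15.6%). DESeq2 called 4, 1 and 1 members with that rule, and 2467, 2801 and 2359 over all genes. The genes that passed in edgeR were *Atf3*, higher, and *Ier2*, lower, at 3 months, *Egr1*, higher, at 9 months and *Fos*, higher, at 18 months. DESeq2 called these 4 as well and, at 3 months, also *Egr1* (2.46, DESeq2 adjusted p = 0.0292) and *Jun* (-0.93, 0.0424).

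*Fos*, whose protein forms AP-1 with the Jun subunits, was scarce throughout. At 18 months the 7 naive libraries held 0, 0 and 2.87 CPM (lowest, median, highest) and the 7 day 12 libraries 1.73, 3.59 and 11.3 CPM. Naive was at 0 in 4 libraries and at 1 count in another 2, and only replicate 1 of the males, at 2.87 CPM, reached into the day 12 range. The log2 difference was 3.82 ± 1.13 (95% interval 1.54 to 6.09), with edgeR adjusted p = 0.0139 in the plain test and 0.0824 against a log2 fold change of 1. Without that male library the difference was 5.33 and passed the test against a log2 fold change of 1 (edgeR adjusted p = 0.00949). It was 1.78 in the libraries of the first collection day (edgeR adjusted p = 0.729) and 5.30 in those of the second (0.00841), and 5.66 in females (0.0691) and 1.98 in males (0.425). Fits of 1 collection day, here and below, had no term for sex, and the sexes were unequal in number within a day. Stage and sex are therefore not fully separated in their values. At 3 months *Fos* had 0, 0 and 3.02 CPM in naive and 0.254, 2.22 and 4.77 CPM at day 12, a log2 difference of 1.90 ± 0.98, and at 9 months the 5 naive libraries held 0, 1.01, 1.82, 1.83 and 2.41 CPM against 1.78, 2.35 and 5.10 CPM, a difference of 0.92 ± 1.04. Neither passed (edgeR adjusted p = 0.198 and 0.605). The median day 12 library held 13 *Fos* counts and the median naive library 1, so that these differences rest on few reads.

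*Egr1* also lay near the measurable floor in naive microglia. At 9 months the 5 naive libraries held 0, 0, 1.21, 1.83 and 4.23 CPM and the 7 day 12 libraries 0.842, 5.97 and 25.5 CPM, a log2 difference of 2.92 ± 1.01 (edgeR adjusted p = 0.0343 in the plain test). The groups overlapped, and the call was lost in 6 of 12 fits without 1 library, the difference lying between 2.32 and 5.39, the highest without replicate 1 of the naive males (edgeR adjusted p = 0.024). Without replicate 2 of the naive males it was 2.41 (edgeR adjusted p = 0.203), without replicate 1 of the day 12 males 2.32 (0.097), and without replicate 2 or 3 of the naive females or of the day 12 females 2.63 to 2.82 (0.0579 to 0.0681). The difference was 1.61 on the first collection day (edgeR adjusted p = 0.633) and 4.82 on the second (0.0135), and 2.47 in females (0.209) and 3.37 in males (0.238). At 3 months *Egr1* differed by 2.36 ± 0.92 and at 18 months by 0.99 ± 0.84, and neither passed (edgeR adjusted p = 0.0706 and 0.479). The 18-month-old naive female replicate 1, at 27.7 CPM, lay above all 7 day 12 libraries of that age, and replicate 2, at 12.2 CPM, above 5 of them.

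*Ier2* was the member with the clearest single difference. At 3 months the 7 naive libraries held 15.5, 31.8 and 60.9 CPM and the 8 day 12 libraries 5.03, 9.15 and 15.0 CPM, so that every day 12 retina lay under every naive one. The log2 difference was -1.66 ± 0.33 (95% interval -2.33 to -1), with edgeR adjusted p = 0.000137 in the plain test and 0.126 against a log2 fold change of 1. It held in 15 of 15 fits without 1 library (-1.79 to -1.45). On the first collection day it was -1.23 (edgeR adjusted p = 0.211) and on the second -2.15 (0.00162), and it was -1.98 in females (0.00262) and -1.34 in males (0.0791). At 9 months the difference was -0.52 ± 0.36 and at 18 months 0.07 ± 0.34, and neither passed (edgeR adjusted p = 0.351 and 0.931). *Ier2* at 3 months and *Jun* at 18 months and day 28 were the 2 of 60 combinations of member, age and day whose groups did not overlap. The share of all genes without overlap was not counted, so that this number has no background. The 60 include those of *Fosb*, which was at 0 in 55 of 62 libraries.

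*Atf3* at 3 months passed the plain test narrowly. The naive libraries held 20.6, 42.5 and 47.8 CPM and the day 12 libraries 18.5, 62.4 and 107.8 CPM, a log2 difference of 0.87 ± 0.32 (edgeR adjusted p = 0.0488). The ranges overlapped over the whole naive range, and the call was lost in 12 of 15 fits without 1 library (0.65 to 1.02 over all 15), the lowest value and the highest adjusted p being those without replicate 4 of the day 12 males (0.65, edgeR adjusted p = 0.175). It was kept only without replicate 3 of the naive males, replicate 4 of the day 12 females or replicate 2 of the day 12 males. On the first collection day the difference was 0.42 (edgeR adjusted p = 0.771) and on the second 1.06 (0.0728). At 9 and 18 months it was -0.08 ± 0.35 and 0.07 ± 0.32.

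The Jun subunits, *Zfp36* and *Dusp1* did not pass the plain edgeR test at day 12 at any age with both sexes averaged. *Jun* had 13.3, 69.5 and 120.5 CPM in naive and 14.7, 35.7 and 59.5 CPM in day 12 libraries at 3 months, a log2 difference of -0.94 ± 0.35 that lay just past the threshold (edgeR adjusted p = 0.0506, DESeq2 adjusted p = 0.0424), and differences of 0 ± 0.37 and -0.44 ± 0.36 at 9 and 18 months. *Junb*, the most abundant member, differed by -0.27 ± 0.26, 0.17 ± 0.30 and -0.08 ± 0.27, and *Zfp36* by -0.32 ± 0.21, -0.10 ± 0.24 and -0.05 ± 0.22. The 95% intervals of *Zfp36* lay between -0.74 and 0.39 over the 3 ages, which leaves out a change of 1 log2 unit either way. *Jund* differed by -0.77 ± 0.30, -0.53 ± 0.34 and -0.29 ± 0.32, and passed in 3-month-old females alone (-1.29, edgeR adjusted p = 0.0447). *Dusp1* differed by -0.26 ± 0.56, 0.27 ± 0.63 and 0.47 ± 0.58 at the 3 ages. *Fosb* was detected in 3 of 22 day 12 libraries, at 0.840, 0.941 and 2.86 CPM, and was not tested.

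At day 28, 0 of 9 members passed against a log2 fold change of 1 at 3 months (0.493% of genes), 9 months (0.582%) or 18 months (0.78%). Unadjusted p under 0.05 was reached by 1, 0 and 1 members, beside 4.61%, 5.61% and 5.48% of genes. DESeq2 called 0 members against that fold change at each age, and 58, 83 and 75 over all genes. With the plain test 0 members passed at 3 months (2.78% of genes), 0 at 9 months (4% of genes) and 1 at 18 months (4.82%). An unadjusted p under 0.05 in that test was reached by 6, 1 and 2 members, beside 13.2%, 18.1% and 17.2% of genes. DESeq2 called 1, 0 and 1 members with that rule, and 554, 878 and 891 over all genes. The gene that passed in edgeR was *Jun* at 18 months, which DESeq2 called too, beside *Egr1* at 3 months (2.79, DESeq2 adjusted p = 0.043, against 0.124 in edgeR).

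*Jun*, the subunit that AP-1 dimers most often share, had 37.6, 67.3 and 137.9 CPM in the 7 naive libraries at 18 months and 10.09, 26.9 and 36.5 CPM in the 7 day 28 libraries, with no overlap. The log2 difference was -1.48 ± 0.37 (95% interval -2.22 to -0.74), with edgeR adjusted p = 0.00804 in the plain test and 0.701 against a log2 fold change of 1, and it held in 14 of 14 fits without 1 library (-1.61 to -1.29). With the library that has 2 time points moved to day 12 it was -1.34 (edgeR adjusted p = 0.0313). The call was lost on either collection day alone (-1.52, 0.255, and -1.44, 0.124) and in females (-1.76, 0.0957) and males (-1.2, 0.315) alone, where fewer libraries entered each value. At 3 months the naive libraries held 13.3, 69.5 and 120.5 CPM and the day 28 libraries 27.5, 42.2 and 49.3 CPM, a difference of -0.73 ± 0.36, and at 9 months 21.3, 54.7, 76.7, 80.1 and 116.4 CPM stood against 26.1, 36.9 and 44.03 CPM, a difference of -0.71 ± 0.39. Neither passed (edgeR adjusted p = 0.362 and 0.335). The spread of *Jun* among day 28 libraries was narrow, with an SD of 9.84 CPM over 21 libraries against 31.7 CPM over the 19 naive ones.

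No other member passed the plain edgeR test at day 28 at a single age with both sexes averaged. In 3-month-old females alone *Ier2* passed it (-1.84, edgeR adjusted p = 0.0256). *Fos* had 0, 2.29 and 5.66 CPM at 3 months, 0, 2.04 and 6.36 CPM at 9 months and 0, 1.497 and 5.23 CPM at 18 months, log2 differences from naive of 1.76 ± 1.02, 0.82 ± 1.04 and 2.39 ± 1.12, and it was at 0 in 5 of 21 libraries. *Egr1* was detected in all 21 day 28 libraries, whereas 5 of 19 naive libraries were at 0, with differences of 2.68 ± 0.94, 1.29 ± 0.97 and 0.93 ± 0.82. *Jund* differed by -0.74 ± 0.32, -0.99 ± 0.34 and -0.64 ± 0.32, *Ier2* by -0.95 ± 0.34, -0.67 ± 0.36 and -0.05 ± 0.34, and *Atf3* by 0.78 ± 0.33, 0.38 ± 0.35 and 0.20 ± 0.32. The smallest edgeR adjusted p among these 15 values in the plain test was 0.0864, for *Jund* at 9 months. *Junb*, *Zfp36* and *Dusp1* differed by -1.28 to 0.52, the lowest and the highest value both being those of *Dusp1*. *Fosb* was detected in 3 of 21 day 28 libraries, at 0.642, 0.764 and 1.52 CPM.

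**Figure D3:**
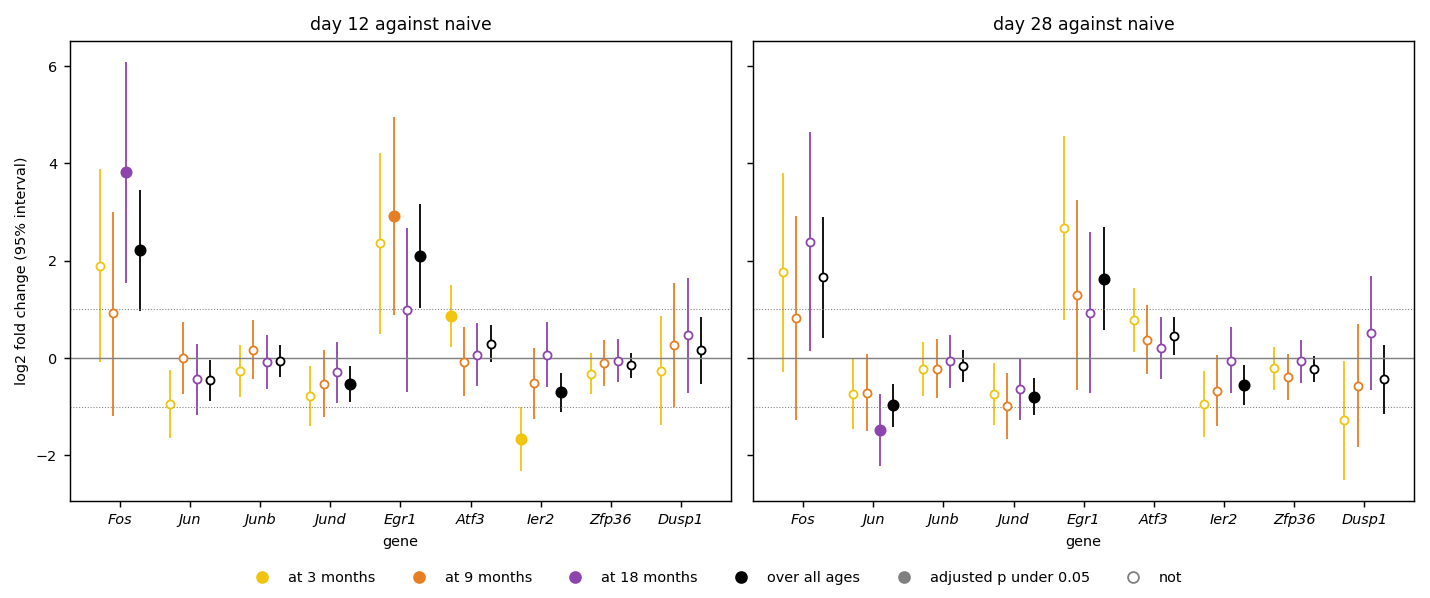
Log2 fold change of each tested member at day 12 (left) and day 28 (right) against naive, at each age and over all ages (colours), with 95% intervals as vertical lines. Filled points have an adjusted p under 0.05 in the plain quasi-likelihood test, and dotted lines mark log2 fold changes of -1 and 1. Intervals of *Fos* and *Egr1* are the widest and those of *Zfp36* the narrowest.

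Averaged over the 3 ages and both sexes, in an analysis added after the values were seen, the members split by direction. Against a log2 fold change of 1, 0 members passed at day 12 (7.52% of genes) and 0 at day 28 (2.29%). DESeq2 called 0 members against it at each day, and 656 and 212 over all genes. In edgeR, unadjusted p under 0.05 was reached by 2 members at each day, beside 11.9% of genes at day 12 and 5.64% at day 28. With the plain test 4 of 9 members passed at day 12, where 36% of genes did, and 4 at day 28, where 15.5% did. DESeq2 called 4 and 5 members, and 5032 and 2332 over all genes. At day 12 the members' count is near the background of all genes.

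*Fos* at day 12 and *Egr1* at both days were higher on this average. The 19 naive libraries held 0, 0.227 and 3.02 CPM of *Fos* (lowest, median, highest), the 22 day 12 libraries 0.254, 2.56 and 11.3 CPM and the 21 day 28 libraries 0, 1.59 and 6.36 CPM. All 22 day 12 libraries had at least 1 *Fos* count, whereas 9 naive libraries had none. The log2 difference was 2.21 ± 0.61 at day 12 (edgeR adjusted p = 0.00307), with 1.83 on the first collection day (0.214) and 2.28 on the second (0.0161), and 1.66 ± 0.61 at day 28, which did not pass in edgeR (0.0567) but did in DESeq2 (1.73, DESeq2 adjusted p = 0.0275). *Egr1* had 0, 0.872 and 27.7 CPM in naive, 0, 4.13 and 25.5 CPM at day 12 and 0.636, 3.42 and 17.5 CPM at day 28. It differed by 2.09 ± 0.53 at day 12 (edgeR adjusted p = 0.00127) and 1.63 ± 0.53 at day 28 (0.0258). On the first collection day these differences were 0.54 (0.747) and 0.22 (0.957), and on the second 2.99 (0.000484) and 2.17 (0.0205). In 18-month-old females *Egr1* differed the other way at both days (-0.46 ± 1.1 and -1.24 ± 1.2), and neither passed (edgeR adjusted p = 0.865 and 0.684). At day 28 the call was lost without replicate 2 of the 9-month-old naive males (1.47, edgeR adjusted p = 0.0841), replicate 2 of the 9-month-old day 28 males (1.48, 0.0535) or replicate 3 of the 18-month-old day 28 males (1.4, 0.062).

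*Jun*, *Jund* and *Ier2* were lower. *Jun* had 13.3, 69.5 and 137.9 CPM in naive, 8.81, 40.2 and 145.3 CPM at day 12 and 10.09, 32.03 and 49.3 CPM at day 28. It differed by -0.46 ± 0.21 at day 12, which did not pass (edgeR adjusted p = 0.081), and by -0.97 ± 0.21 at day 28 (0.000607), with -1.32 on the first collection day (0.0163) and -0.88 on the second (0.0362). *Jund*, the Jun subunit expressed without stimulation in most cells, had 17.9, 27.7 and 74.0 CPM in naive, 11.4, 19.3 and 63.1 CPM at day 12 and 4.30, 17.0 and 41.7 CPM at day 28. It differed by -0.53 ± 0.19 at day 12 (edgeR adjusted p = 0.0195) and by -0.79 ± 0.19 at day 28 (0.00165). On the first and second collection day these differences were -0.32 (0.536) and -0.73 (0.0143) at day 12 and -1.25 (0.0279) and -0.57 (0.101) at day 28. The day 12 call of *Jund* was lost without replicate 2 of the 9-month-old naive males (-0.32, edgeR adjusted p = 0.211) or replicate 1 of the 9-month-old naive females (-0.42, 0.068), and without both libraries with the fewest genes (-0.42, 0.0666).

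*Ier2* had 8.23, 24.4 and 63.4 CPM in naive, 5.03, 13.8 and 38.4 CPM at day 12 and 7.79, 15.9 and 47.6 CPM at day 28. It differed by -0.70 ± 0.20 at day 12 (edgeR adjusted p = 0.00348) and by -0.55 ± 0.20 at day 28 (0.0482). Without the pair of naive libraries with the fewest genes, an alternative chosen after seeing the data, the differences were -0.43 (0.0562) and -0.28 (0.358), and the day 28 call was lost in 27 of 40 fits without 1 library (-0.65 to -0.41). On the first and second collection day *Ier2* differed by -0.81 (0.0836) and -0.56 (0.114) at day 12 and by -1.20 (0.0479) and -0.15 (0.821) at day 28. *Junb*, *Zfp36*, *Atf3* and *Dusp1* did not pass at either day. Their log2 differences were -0.06 ± 0.16, -0.15 ± 0.13, 0.29 ± 0.19 and 0.16 ± 0.34 at day 12 and -0.17 ± 0.16, -0.22 ± 0.13, 0.45 ± 0.19 and -0.44 ± 0.35 at day 28. The comparisons of both days share the naive libraries.

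Whether the change after injection depended on age was tested as an interaction, at an adjusted p under 0.1. For day 12, 0 members passed at 9 against 3 months (0.0368% of genes) and 0 at 18 against 3 months (0.155%). For day 28, 0 passed at either pair of ages (0% of genes each). Unadjusted p under 0.05 was reached by 2, 1, 0 and 1 members in these 4 comparisons, beside 6.13%, 11%, 4.26% and 4.42% of genes. At day 12 and 18 against 3 months DESeq2 called 221 genes, and 1 member among them. This was *Ier2*, with a difference between the log2 changes of 1.74 ± 0.47 (95% interval 0.79 to 2.69, edgeR adjusted p = 0.117, DESeq2 adjusted p = 0.0431). Without the pair of libraries with the fewest genes it was 2.19 (edgeR adjusted p = 0.0239), and with the library of 2 time points at day 12 it was 2.06 (0.0461). The change did not differ between males and females for any member at day 12 (0 of 9, 0% of genes) or day 28 (0 of 9, 0% of genes), with 0 calls by DESeq2 (7 and 8 over all genes). Unadjusted p under 0.05 was reached by 0 and 2 members, beside 5.82% and 4.14% of genes. The smallest p was that of *Ier2* at day 28, with a log2 change 1.31 ± 0.40 higher in males (edgeR adjusted p = 0.821).

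Within injected eyes, 18- and 3-month-old females at day 12 differed in 0 members (0.456% of genes), as did males at day 12 (0% of genes), females at day 28 (0%) and males at day 28 (0.00736%). Unadjusted p under 0.05 was reached by 2, 0, 0 and 1 members, beside 12.8%, 4.2%, 5% and 3.1% of genes. DESeq2 called 1 member, *Ier2* in females at day 12, where it called 494 over all genes. There the 4 libraries at 3 months held 5.03, 8.39, 12.7 and 15.0 CPM and the 4 at 18 months 28.4, 30.4, 33.7 and 36.7 CPM, with no overlap, and the log2 difference was 1.65 ± 0.45 (edgeR adjusted p = 0.104, DESeq2 adjusted p = 0.0248). The 3-month-old naive females, at 27.1, 31.8, 42.7 and 60.9 CPM, overlapped the 18-month-old day 12 females. In males at day 12, 6.09, 6.36, 9.91 and 12.6 CPM at 3 months stood against 7.88, 12.2 and 23.6 CPM at 18 months, a difference of 0.74 ± 0.49.

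*Fos* was set against the other 9 members across the 62 libraries, with group means removed, to ask whether libraries with more *Fos* also held more of the rest. Pearson r lay between -0.17 (*Atf3*) and 0.22 (*Fosb*), and Spearman's rho was 0.19 for *Fosb* and 0.15 for *Jun*. The adjusted p was 0.91 or above for every rho. None of the 9 relations passed a permutation test (100000 permutations, two-sided, adjusted p 0.709 to 0.801 for r). Without the 2 libraries farthest from the *Fos* median (11.3 and 6.36 CPM), r was between -0.13 and 0.21. Within the first collection day, r with *Egr1*, *Atf3*, *Zfp36* and *Jun* was 0.54, 0.48, 0.46 and 0.45 (16 libraries, permutation test, adjusted p = 0.101 for each), and within the second 0.2, 0.16, -0.39 and 0.34 (32 libraries, 0.533 for each).

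The 10 genes whose within-group levels had the highest Pearson r with the mean of the members, out of 13575 other genes over 62 libraries, were *Ptpn1* (0.69), *Csnk1g2* and *Irf8* (0.65), *Arhgdia*, *Pfkl*, *Efhd2* and *Hgs* (0.64), and *Gpaa1*, *Trmt2a* and *Gas6* (0.62). *Ptpn1* encodes a tyrosine phosphatase and *Irf8* a transcription factor of the microglial lineage. None of the other lists below holds any of them.

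Other genes of the same pathways were read from lists for AP-1 and bZIP partners, further immediate early genes, upstream kinases and SRF factors, negative feedback, heat shock, and transcripts known to rise during dissociation. At day 12 over all ages, 4 of 10 tested AP-1 and bZIP partners were higher and 1 was lower in the plain edgeR test, where 36% of all genes passed (median log2 difference 0.29, beside 0.02 over all genes). *Batf2*, a bZIP factor known as induced by interferon, had 0.217, 1.31 and 3.90 CPM in naive libraries at 3 months and 14.3, 18.8 and 30.8 CPM at day 12, with no overlap. It differed by 3.75 ± 0.49, 5.05 ± 0.61 and 3.61 ± 0.47 at 3, 9 and 18 months and passed against a log2 fold change of 1 at each (edgeR adjusted p = 6.17e-06, 2.4e-07 and 7.54e-06). *Maff*, a small Maf protein without its own activation domain, differed over all ages by 2.54 ± 0.33 at day 12 and 2.58 ± 0.33 at day 28, and *Batf* by 0.97 ± 0.16 and 0.58 ± 0.16. *Atf4*, a factor of the integrated stress response, was lower at day 12 (-0.31 ± 0.10).

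**Figure D4:**
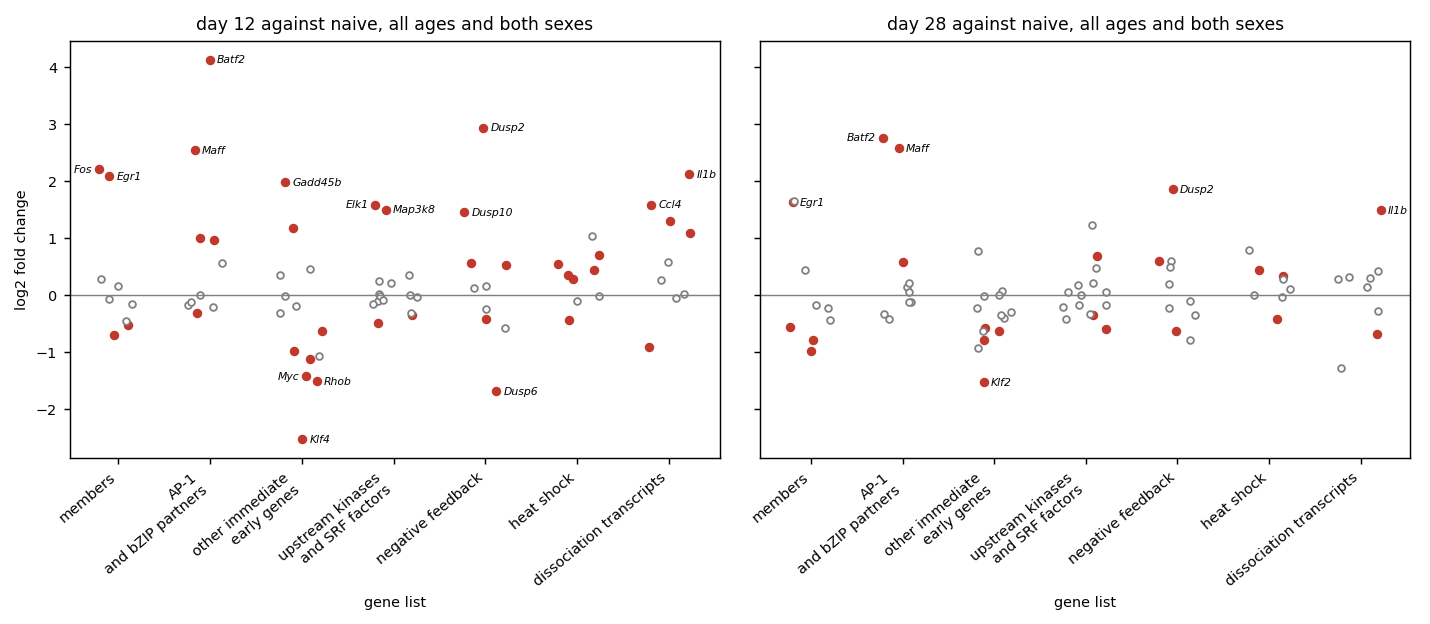
Log2 fold change over all ages and both sexes of every tested gene of the 7 lists at day 12 (left) and day 28 (right) against naive, 1 point per gene, spread sideways for legibility. Red points have an adjusted p under 0.05 in the plain quasi-likelihood test and are named where the change exceeds 1.4 either way, and genes with a standard error above 0.9 (2 at day 12, 3 at day 28) are not drawn. *Batf2* and *Maff* stand above the other AP-1 partners on both days, at 4.13 and 2.54 and at 2.76 and 2.58.

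Among 16 tested further immediate early genes, 3 were higher and 6 lower at day 12 (median -0.25), and 0 higher and 4 lower at day 28 (median -0.37), all in the plain edgeR test over all ages, where 36% and 15.5% of all genes passed. Those lower at day 12 included *Btg2*, an antiproliferative gene (-1.11 ± 0.11), *Rhob*, a small GTPase (-1.51 ± 0.18), *Sgk1*, a serum- and glucocorticoid-induced kinase (-0.98 ± 0.14), and *Myc* (-1.42 ± 0.21). *Rhob* was between 7.06 and 59.4 CPM in day 12 libraries and between 44.4 and 97.6 CPM in naive ones. At day 28 *Klf2*, a factor that restrains myeloid activation, was lower (-1.53 ± 0.22), and *Btg2* and *Rhob* were lower too (-0.62 ± 0.11 and -0.79 ± 0.18). Of 15 upstream kinases and SRF factors, 2 were higher and 2 lower at day 12 (median -0.01), beside 36% of all genes. *Map3k8*, a kinase upstream of ERK, was higher by 1.5 ± 0.16, and *Mapk14*, which encodes p38 alpha, was lower (-0.49 ± 0.12).

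Negative feedback genes numbered 10 tested, of which 4 were higher and 2 lower at day 12 (median 0.15) and 2 higher and 1 lower at day 28 (median 0.05), beside 36% and 15.5% of all genes. *Dusp6*, a phosphatase of ERK, had 201.3, 255.6 and 400.8 CPM in naive libraries at 3 months and 66.5, 84.5 and 153.6 CPM at day 12, with no overlap, and differed over all ages by -1.68 ± 0.16 at day 12 and -0.63 ± 0.16 at day 28. *Nfkbia* and *Tnfaip3*, inhibitors of NF-kB, were higher at day 12 by 0.53 ± 0.12 and 0.56 ± 0.14. *Dusp2* differed by 2.94 ± 0.65, but was at 0 in 4 of 7, 4 of 5 and 1 of 7 naive libraries at 3, 9 and 18 months, so that the size of this fitted value is uncertain. Of 9 heat shock genes 5 were higher and 1 lower at day 12 (median 0.36, 36% of all genes), led by *Hsp90ab1* (0.55 ± 0.10), *Hspe1* (0.71 ± 0.16) and *Hspa8* (0.44 ± 0.11), while the co-chaperone *Dnajb1* was lower (-0.44 ± 0.15).

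Of 12 transcripts known to rise in microglia during dissociation, 9 were tested, of which 4 were higher and 1 was lower at day 12 (median 0.59) and 1 higher and 1 lower at day 28 (median 0.28), beside 36% and 15.5% of all genes. *Il1b* and *Tnf*, which are also inflammatory cytokines, and *Nfkbiz*, a regulator of NF-kB targets, were higher at day 12 by 2.12 ± 0.38, 1.30 ± 0.20 and 1.09 ± 0.18, and *Txnip*, an inhibitor of thioredoxin, was lower (-0.90 ± 0.12). At day 28 *Il1b* was higher by 1.49 ± 0.37 and *Txnip* was lower (-0.68 ± 0.12).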

How the data were processed

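Poly(A) RNA of 600 sorted microglia per retina was amplified by SMART-Seq v4, a kit that does not mark strand. The authors aligned reads to mm10 with STAR 2.7.8a (base calls by bcl2fastq 2.20), counted them per gene with featureCounts and corrected the counts for collection day with ComBat-seq in R 4.2.2, and these whole-number counts were deposited per gene and library. The correction can move low counts, so the deposited uncorrected counts served as an alternative.

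Here 1 negative binomial model with a mean for each of 18 groups of age, sex and stage was fitted to 62 libraries (edgeR 4.0.16 quasi-likelihood, TMM factors 0.8448 to 1.276, R 4.3.3, 44 residual degrees of freedom), after filterByExpr kept 13584 of 25239 genes. Day against naive had to exceed 1 log2 unit (glmTreat) with an adjusted p (Benjamini-Hochberg) under 0.05 and was also tested with the plain F test, and ages, sexes and interactions with the F test at an adjusted p under 0.1. Adjustment ran over all genes tested. Correlations used log2 CPM with a prior count of 2. DESeq2 1.42.0 was run with the same design. Scripts were tested on simulated data. The p-values measure the spread between these libraries. CPM intervals and floors cover counting error only.

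One library was left out by rule and another occurs only in the uncorrected table. Other alternatives were DESeq2 size factors, uncorrected counts (day as a term, or no batch term), all genes with a count in place of the filtered ones, the replicate number as a block, only the groups compared, 1 sex, 1 collection day and leaving out each library in turn. Fits of 1 collection day used a mean for each group of age and stage, with the sexes pooled. Of 79 library pairs within groups, 0 were identical. The members and lists were chosen with earlier results of these data known. All members are named, and of every other list at most 4 genes per comparison, those with the smallest p past its threshold, beside the 10 genes most alike.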

Additional observations from a re-analysis of the deposited data

Results flagged for a closer look

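Within groups of 4 libraries, 84 sets of a gene and a group were examined for a library far from the rest by Dixon's criterion. Of these 6 were found, where chance gives about 1 in 20 sets if values spread normally. A set with 0 in all libraries but 1 always meets the criterion, as both *Fosb* sets below do, so that 6 is no measure of an excess. *Atf3* was at 47.82 CPM in replicate 1 of the 3-month-old naive females, against 42.49 to 43.03 CPM in the others. *Zfp36* was at 83.38 CPM in replicate 1 of the 18-month-old day 12 females, against 57.13 to 59.26 CPM. *Dusp1* was at 1.576 CPM (5 counts) in replicate 4 of the same group, against 9.393 to 13.11 CPM. *Fos* was at 0.2536 CPM (1 count) in replicate 4 of the 3-month-old day 12 males, against 3.577 to 4.77 CPM. *Fosb* was at 2.86 CPM (7 counts) in replicate 1 of the 3-month-old day 12 females and at 0.9414 CPM (3 counts) in replicate 3 of the 18-month-old day 12 females, with 0 in the others of each group.

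In a 9-month-old day 28 male that entered no comparison, present only in the uncorrected counts, *Fosb* was at 0.976 CPM (5 counts), above the highest naive library of that table at 0.1956 CPM.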

How the results depend on the processing

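In the tests reported first, the count of members called was 0 in every comparison. Of 264 such counts under other settings 243 were unchanged and 21 moved, and of 427 with 1 library left out 405 were unchanged and 22 moved. The plain test called 2, 1 and 1 members at day 12 at 3, 9 and 18 months, 1 at day 28 at 18 months, and 4 over all ages at each day. Without a filter on low counts, the count became 1 for naive males against females (*Egr1*), day 12 at 9 months (*Egr1*), day 12 at 18 months (*Fos*) and the day 12 change at 18 against 3 months (*Ier2*), and 2 for 18 against 3 months in females at day 12 (*Jun* and *Ier2*) and for day 12 over all ages (*Fos* and *Egr1*). Over all genes these comparisons called, in the same order, 131, 752, 634, 396, 451 and 1185 genes without the filter. With it they called 11, 562, 443, 21, 62 and 1021. DESeq2 and the fit without the 2 libraries with the fewest genes each called 1 member, *Ier2*, in the day 12 change at 18 against 3 months and in females at day 12. The latter fit also called 1 at day 12 over all ages (*Egr1*, 2.52, edgeR adjusted p = 0.0129). The library with 2 time points, placed at day 12, gave 1 (*Ier2*). The second collection day alone gave 1 at 18 months (*Fos*) and 1 over all ages (*Egr1*) at day 12. For this day, the moved library and the fit without the 2 libraries, no count over all genes is given. The cause was not tested.

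With 1 library left out, counts ranged from 0 to 1 for day 12 at 18 months, for the day 12 change at 18 against 3 months and for females at day 12, and from 0 to 2 for day 12 over all ages. Both *Fos* (2.73, edgeR adjusted p = 0.0102) and *Egr1* (2.36, 0.0226) passed there without replicate 1 of the 18-month-old naive males, and *Ier2* passed in the females without replicate 2 of the 3-month-old day 12 females (1.90, 0.0915) and in the change without replicate 3 of the 3-month-old day 12 males (1.86, 0.0959), replicate 3 of the 18-month-old day 12 males (1.88, 0.0648), or replicate 1 (2.19, 0.0818) or 2 (1.66, 0.0989) of the 18-month-old naive females.

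With the replicate number as a block, 2 members passed at day 12 over all ages (*Fos* 2.40, edgeR adjusted p = 0.041, and *Egr1* 2.29, 0.0311), where 978 of all genes passed, against 1021 without the block. The plain calls of *Atf3* at 3 months (0.88, 0.054) and of *Ier2* at day 28 over all ages (-0.51, 0.106) were lost. Libraries share only a number, since deviations correlated by -0.0114 on average over 464 pairs of the same number and by 0.00407 over 1348 others, and 17 of 62 libraries matched best with their own number. With uncorrected counts, *Atf3* at 3 months was 0.76 with a day term (0.0906) and 0.77 without (0.125), *Ier2* at day 28 over all ages -0.54 (0.0721) and -0.7 (0.0711), and, without the term only, *Egr1* at 9 months 2.91 (0.054) and *Jund* at day 12 over all ages -0.45 (0.14) lost their calls. With the groups compared only, *Egr1* at 9 months was 2.95 (0.0903) and *Ier2* at day 28 over all ages -0.54 (0.0555), and with the left-out library kept the latter was -0.52 (0.0602). With the groups compared only and without a filter on low counts, the plain test called 4 and 4 members at day 12 and 4 and 2 at day 28 at 3 months, against 2 and 0. Over all genes it called 2517 and 2201 at day 12 and 805 and 662 at day 28, against 2261 and 377.

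The correlation of *Fos* changed sign on the first collection day for *Junb* (0.4), *Jund* (0.34) and *Atf3* (0.48), on the second for *Atf3* (0.16), *Ier2* (0.17), *Zfp36* (-0.39) and *Dusp1* (-0.05), and in uncorrected counts for *Junb* (0.11), *Atf3* (0.33) and *Ier2* (0.09), and 0 of these passed the permutation test after adjustment. Depth limits *Fos*, *Fosb* and *Egr1* most, with 3 counts or fewer in 20, 59 and 12 of 62 libraries.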
